A study of Mus musculus with 2 samples.

Results

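A small group of cells in cultures of primary mouse aortic vascular smooth muscle cells (VSMCs) carried transcripts of at least 2 of the transcription factors *Tfap2b*, *Dlx5* and *Pax9*. These cells, called *Tfap2b*/*Dlx5*/*Pax9* cells below, were chosen by that rule among barcodes with at least 300 genes, at least 3000 unique molecular identifiers (UMIs, tags that mark single mRNA molecules) and under 20% mitochondrial UMIs. The rule found 232 of 11690 kept cells. Of these, 228 were among the 6824 cells of biological replicate 2 (3.34%, 2.93 to 3.80%) and 4 were among the 4866 cells of biological replicate 1 (0.0822%, 0.0224 to 0.210%). All intervals given here are exact, at 95%, and cover counting error only. The 3 genes chose the cells, so that their levels are descriptions, and they were left out of every comparison.

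The study has 1 condition with 2 libraries. Both hold cells of the thoracic aorta of wildtype mice on a C57BL6/N background, set free by enzymatic digestion and grown in medium with 10% serum for 5 days. Several aortae were pooled in a preparation, and the age of the mice was not given for these 2 libraries. The study gives an age range for the mice whose cultured cells were imaged. The aorta was freed of surrounding tissue before digestion, and the methods describe no sorting, so that a culture can hold other cells of the wall. The study reports that most of its cultured cells stained for α-smooth muscle actin. The files held 127949633 UMIs for replicate 1 and 132561822 for replicate 2, with a median of 22234 and 16310 UMIs per kept cell.

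*Tfap2b* encodes an AP-2 factor that acts in the neural crest and in the smooth muscle of the ductus arteriosus, the fetal vessel between the pulmonary artery and the aorta. *Dlx5* encodes a distal-less homeodomain factor of the pharyngeal arches and the skeleton, and *Pax9* a paired-box factor of the pharyngeal pouches, the palate and the sclerotome. In the embryo, smooth muscle of the ascending aorta and the arch comes largely from the neural crest, whereas that of the descending thoracic aorta comes from the somites. Cells of the head and of the first arch lack *Hox* transcripts, and *Hox* genes of higher paralog groups are used further back along the body. This is background, and the origin of the cells was not measured.

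The 3 genes lie on different chromosomes (GRCm38). *Tfap2b* (ENSMUSG00000025927) is at chr1:19208914-19238576 on the plus strand, *Dlx5* (ENSMUSG00000029755) at chr6:6877805-6882085 on the minus strand, and *Pax9* (ENSMUSG00000001497) at chr12:56691767-56712822 on the plus strand. In replicate 2, *Tfap2b* was found in 307 cells (4.50%), *Dlx5* in 413 (6.05%) and *Pax9* in 281 (4.12%). In replicate 1, the counts were 7 cells (0.144%), 98 (2.01%) and 84 (1.73%). *Tfap2b* thus differed most between the libraries. Among the 228 cells of replicate 2, 59 had UMIs of all 3 genes, 70 of *Tfap2b* and *Dlx5*, 61 of *Dlx5* and *Pax9*, and 38 of *Tfap2b* and *Pax9*. All 4 cells of replicate 1 had *Dlx5* and *Pax9* without *Tfap2b*. Just outside the rule, 486 cells of replicate 2 had UMIs of a single gene of the 3 (223 *Dlx5*, 140 *Tfap2b*, 123 *Pax9*), and 6110 cells had none. The summed counts of the 228 cells gave 75.7 CPM (counts per 1000000 UMIs) for *Tfap2b*, 70.3 CPM for *Dlx5* and 54.4 CPM for *Pax9*, and the most UMIs in any of the cells were 11, 8 and 12.

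**Figure D1:**
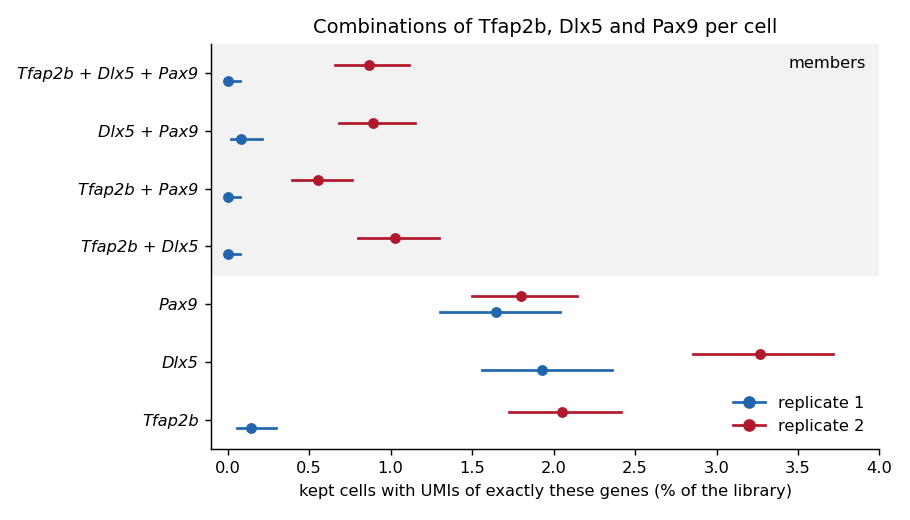
Share of kept cells of each library (x axis, %) with UMIs of exactly the genes named on the y axis, with exact 95% binomial intervals. The shaded rows are the combinations that the rule chose, and the cells in them are the members. In replicate 2, 59 cells hold all 3 genes and 169 hold 2 of them, whereas replicate 1 has 4 cells, all with *Dlx5* and *Pax9*.

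The libraries stood apart in ways that move with this difference. In cells with none of the 3 genes, *Xist*, the RNA of the inactive X chromosome, was at 0.0351 CPM in replicate 1 and at 470 CPM in replicate 2, and the Y-linked gene *Ddx3y* was at 91.2 and 0 CPM. Library and sex of the animals cannot be told apart. *Hox* genes of paralog groups 6 to 13 were at 230 CPM in replicate 1 and 99.1 CPM in replicate 2, and their part in the difference in cell number was not tested. The libraries shared 9 kept barcodes, and 1 of them was a *Tfap2b*/*Dlx5*/*Pax9* cell.

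Free RNA from broken cells can place UMIs in any droplet. In barcodes with 1 to 100 UMIs of replicate 2, *Tfap2b* was at 4.11 CPM, and *Dlx5* and *Pax9* were at 4.56 CPM. At the share of free RNA estimated from endothelial cell (EC) markers (11.5%), these levels alone would give at least 2 of the 3 genes to 2.12 of the 6824 cells. UMIs of the same genes chose the 228 cells, so that this number only describes the rule. Free RNA as a source of these UMIs was not tested. Cells with at least 3 of 8 EC markers were taken as another cell type of the culture, and their median depth was 10166 UMIs against 16449 in the other cells. Among 146 such cells, 2 had *Tfap2b* (1.37%, 0.166 to 4.86%), 6 had *Dlx5* (4.11%, 1.52 to 8.73%) and 17 had *Pax9* (11.6%, 6.93 to 18.0%). At least 2 of the genes were in 4 of them (2.74%, 0.751 to 6.87%), and these 4 cells had a median of 25608 UMIs. In the other cells these shares were 4.57% (4.08 to 5.10%) for *Tfap2b*, 6.10% (5.53 to 6.70%) for *Dlx5*, 3.95% (3.499 to 4.449%) for *Pax9* and 3.35% (2.94 to 3.81%) for at least 2 genes. Only the intervals of *Pax9* did not overlap, with the higher share in EC marker cells, so that these cells give no background level for *Pax9* or for the rule. The count of *Tfap2b*/*Dlx5*/*Pax9* cells thus includes these 4 cells.

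Each of the 228 cells was set against 5 cells of the same library with 0 UMIs of the 3 genes and the nearest total UMIs, 1140 cells in all. The median was 22366 UMIs in the *Tfap2b*/*Dlx5*/*Pax9* cells and 22365 in the comparison cells, with 4726 and 4657 genes and 5.20% and 4.99% mitochondrial UMIs. Only replicate 2 had cells enough, so that there is 1 sample per side and no test. Ratios of the summed counts are given instead, and they describe this library. Among 9491 genes with a mean of at least 5 CPM over both sums, 127 were at least 2-fold higher in the *Tfap2b*/*Dlx5*/*Pax9* cells (1.34% of the genes) and 228 were at least 2-fold lower (2.4%). The whole interval lay beyond 2-fold for 70 and 123 of these genes, and the median log2 ratio of all genes was -0.0085. Most genes thus lay within 2-fold of the comparison cells. Doublets were kept in the data, and 25 of the 228 cells (11.0%) lay above the 95th percentile of UMIs of the library. Without cells above it, 133 genes were higher and 250 lower.

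The neighbours of *Dlx5* on chromosome 6 were among the genes with the highest ratios. *Dlx6*, the partner of *Dlx5* in a convergent gene pair, was at 26.9 CPM against 0.333 CPM (ratio 80.9, 41.4 to 180) and was found in 37.3% of the *Tfap2b*/*Dlx5*/*Pax9* cells and 0.79% of the comparison cells. *Dlx6os1*, the antisense RNA of this locus, was at 31.4 CPM against 0.185 CPM (ratio 170, 71.2 to 529) and in 26.3% against 0.439% of cells. *Dlx6os1* (chr6:6820189-6871592, minus strand) covers all 5235 bases of *Dlx6* (chr6:6863334-6868568, plus strand) on the opposite strand, and the 10x 3′ method keeps the strand of a transcript. Neither gene overlaps *Dlx5*.

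Other genes with high ratios were spread over many of the cells. *Foxq1*, a forkhead factor, was at 35.6 CPM against 1.26 CPM (ratio 28.3, 19.6 to 42.0), and *Foxf1*, a forkhead factor of visceral and vascular mesenchyme, at 14.2 CPM against 0.926 CPM (ratio 15.4, 9.67 to 25.2). *Adamtsl1*, a secreted matrix protein related to the ADAMTS proteases, was at 66.6 CPM against 2.48 CPM (ratio 26.9, 20.6 to 35.4). Per cell, *Adamtsl1* ranged from 0 to 461 CPM with a median of 38.4 CPM, and the comparison cells ranged from 0 to 227 CPM with a median of 0. The ranges overlapped, with a UMI in 56.6% of the *Tfap2b*/*Dlx5*/*Pax9* cells and in 4.74% of the comparison cells. *Hhip*, an antagonist of hedgehog ligands, was at 21.04 CPM against 2.44 CPM (ratio 8.61). *Megf10* encodes an engulfment receptor and *Mab21l2* a nuclear protein of eye and body wall development. *Megf10* was at 24.5 CPM against 3.07 CPM, *Mab21l2* at 17.0 against 2.26, *Klhdc8a* at 19.0 against 2.59 and *Gchfr*, the feedback regulator of GTP cyclohydrolase, at 12.2 against 1.70.

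The remaining 5 of the 15 highest ratios rested on few cells. *Col2a1*, the collagen of cartilage, reached 144 CPM against 9.44 CPM, but 625 of its 780 UMIs came from 1 cell. It was found in 11 of the 228 cells (4.83%) and in 7.02% of the comparison cells, and without that cell its ratio was 3.06. *Slurp1* had 80.2% of its UMIs in 1 cell and *Slpi*, a secreted protease inhibitor, had 89.0%, and without that cell their ratios were 3.40 and 1.88. *Angptl7*, a secreted angiopoietin-like protein, had 63.4% in 1 cell and still a ratio of 37.2 without it. *Emcn*, a sialomucin of ECs, had 40 and 39 of its 87 UMIs in 2 cells. Of all 127 genes called higher, 6 had at least 50% of their UMIs in a single cell.

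**Figure D2:**
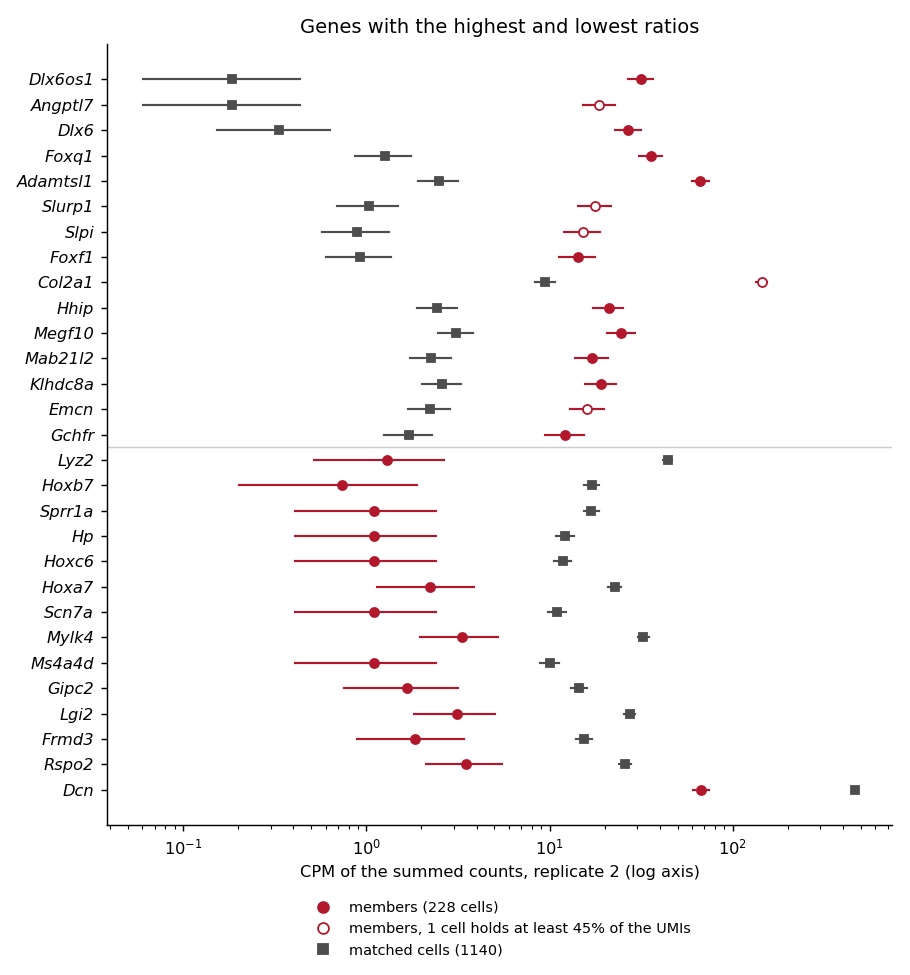
CPM of summed counts (x axis, log axis) in the 228 *Tfap2b*/*Dlx5*/*Pax9* cells (members, circles) and the 1140 comparison cells of replicate 2 (squares) for the 15 genes with the highest ratio and 14 of the 15 with the lowest, with 95% intervals of counting error. Open circles mark genes with at least 45% of their UMIs in 1 cell. *Dlx6os1* and *Dlx6* stand at 31.4 and 26.9 CPM against under 1 CPM, and *Dcn* stands at 67.2 against 466 CPM.

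The 15 lowest ratios included matrix, immune and signalling genes and posterior *Hox* genes. *Dcn*, encoding the collagen-binding proteoglycan decorin, was at 67.2 CPM against 466 CPM (ratio 0.144, 0.129 to 0.160) and was found in 38.2% against 80.1% of cells. Its median per cell was 0 CPM in the *Tfap2b*/*Dlx5*/*Pax9* cells (0 to 814 CPM) and 306 CPM in the comparison cells (0 to 6486 CPM). *Lyz2*, lysozyme of myeloid cells, was at 1.29 CPM against 44.0 CPM. It was found in 7.46% of the comparison cells, and a single cell held 30.4% of its UMIs there. In all cells of replicate 2 with none of the 3 genes *Lyz2* was at 17.3 CPM. *Sprr1a*, a cornified envelope protein induced by stress, was at 1.11 CPM against 16.9 CPM, and *Hp*, the hemoglobin scavenger haptoglobin, at 1.11 against 12.1. Among genes of ion channels, kinases and secreted signals, *Scn7a* was at 1.11 CPM against 11.0 CPM, *Mylk4* at 3.32 against 32.5, *Lgi2* at 3.14 against 27.4 and *Rspo2* at 3.51 against 25.8. *Ms4a4d* (1.11 against 10.0 CPM), *Gipc2* (1.66 against 14.6 CPM) and *Frmd3* (1.85 against 15.4 CPM) were also among them, as were *Hoxb7*, *Hoxc6* and *Hoxa7*.

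*Hox* genes separated the cells by position along the cluster. This list of 39 genes was added after values had been seen. Paralog groups 1 to 4 together were at 101 CPM in the *Tfap2b*/*Dlx5*/*Pax9* cells and at 102 CPM in the comparison cells (ratio 0.995, 0.907 to 1.09). Group 5 was at 21.8 CPM against 36.6 CPM (ratio 0.595, 0.488 to 0.721), and groups 6 to 13 together at 9.04 CPM against 96.6 CPM (ratio 0.0936, 0.0691 to 0.124). *Hoxb7* was at 0.738 CPM against 17.0 CPM (ratio 0.0435, 0.0118 to 0.112), *Hoxc6* at 1.11 against 11.8 and *Hoxa7* at 2.21 against 22.7, while *Hoxa3* was at 20.7 against 19.0 and *Hoxb2* at 27.5 against 29.2. At least 1 UMI of groups 6 to 13 was found in 23 *Tfap2b*/*Dlx5*/*Pax9* cells (10.1%, 6.503 to 14.8%) and in 481 comparison cells (42.2%, 39.3 to 45.1%). The groups of cells overlapped in this measure, since 57.8% of the comparison cells had none either.

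**Figure D3:**
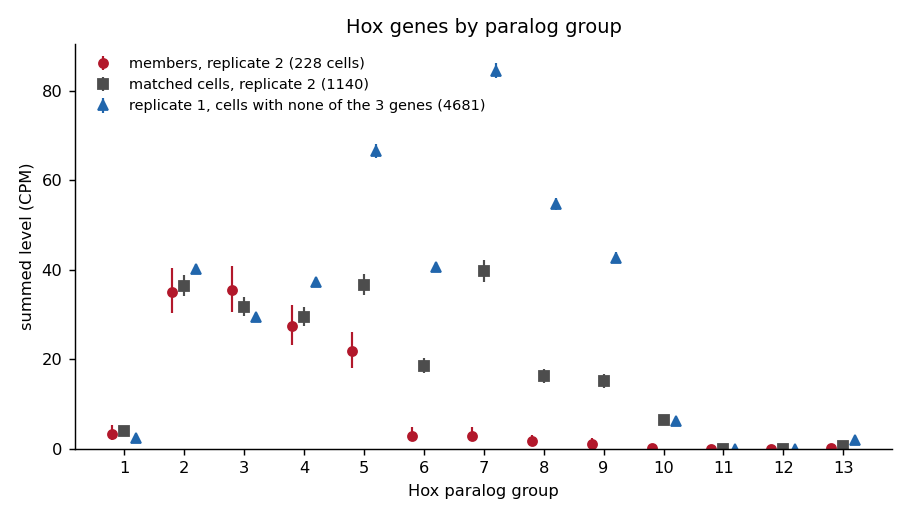
Summed level in CPM (y axis) of each *Hox* paralog group (x axis, 1 to 13) in the *Tfap2b*/*Dlx5*/*Pax9* cells (members) and the matched comparison cells of replicate 2 and in the 4681 cells of replicate 1 with none of the 3 genes, with 95% intervals of counting error. The 2 kinds of cells of replicate 2 lie close together for paralog groups 1 to 4 and separate for groups 5 to 10, with 2.95 against 39.7 CPM for group 7, and groups 11 and 12 are at 0 in both.

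Since posterior *Hox* genes divide the comparison cells as well, the cells were also compared among cells with 0 UMIs of groups 6 to 13, 205 *Tfap2b*/*Dlx5*/*Pax9* cells against 1025 matched cells. This comparison was added after the data had been seen. Of 9416 genes, 132 were at least 2-fold higher (1.4%) and 194 at least 2-fold lower (2.06%). Of the 127 higher and 228 lower genes of the comparison above, 123 and 194 passed the filter here, and 104 and 153 of these were called again. The 3 posterior *Hox* genes among the 228 are at 0 here by construction and could not be called. The cells are also part of those compared above. *Dlx6* was at 28.8 CPM against 0.295 CPM, *Adamtsl1* at 69.3 against 2.02 and *Dcn* at 52.4 against 391. The ratios of these 3 genes were as far from 1 as in the comparison of all the cells. Other ratios moved toward 1, for *Dlx6os1* from 170 to 99.2, for *Col2a1* from 15.2 to 7.45 and for *Slpi* from 17.0 to 8.30. *Emcn* went from 7.23 to 1.53 and *Hp* from 0.0912 to 0.271, and both were below the filter here. Further ratios moved away from 1, for *Hhip* from 8.61 to 15.2 and for *Grem1* from 4.62 to 7.07. *Mylk4* went from 0.102 to 0.0423 and *Hand2* from 0.153 to 0.0871.

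The list of craniofacial and pharyngeal arch transcription factors had 46 genes besides the 3 that chose the cells, of which 33 had a UMI in the *Tfap2b*/*Dlx5*/*Pax9* cells. Among the 16 that passed the filter on level, 6 were at least 2-fold higher and 2 at least 2-fold lower, against 1.34% and 2.4% of all genes. The median log2 ratio was 0.45 against -0.0085 for all genes. The filter favours genes that are high in either sum, so that neither the count nor the median describes the whole list. Of the 6 called higher, *Dlx2*, *Dlx6*, *Msx2* and *Foxf1* passed it only through the *Tfap2b*/*Dlx5*/*Pax9* cells. In the comparison cells they were at 0.963, 0.333, 0.666 and 0.926 CPM. *Dlx6* also lies beside *Dlx5*, which helped to choose the cells.

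Within the *Dlx* family, which is laid out in pairs of linked genes, *Dlx2* was at 9.78 CPM against 0.963 CPM (ratio 10.2, 6.24 to 16.9) and *Dlx1* at 7.01 against 0.296, whereas *Dlx3* and *Dlx4* had no UMI in the 228 cells. *Msx2*, a homeodomain factor downstream of BMP signals, was at 12.7 CPM against 0.666 CPM (ratio 19.1, 11.2 to 34.1), and *Msx1* at 6.27 against 3.30. *Barx1*, a homeodomain factor of the arches and stomach, was at 9.60 CPM against 0.185 CPM (ratio 51.8, 20.9 to 166) in 9.21% of the cells. *Eya1*, a coactivator, was at 5.17 CPM against 0.185 CPM. *Tfap2a*, the AP-2 factor most used in the early neural crest, was at 4.06 CPM against 0.926 CPM. *Dlx1*, *Msx1*, *Barx1*, *Eya1* and *Tfap2a* were below the filter on level, and they are named because at least 5% of the *Tfap2b*/*Dlx5*/*Pax9* cells had a UMI, which favours genes that are high in these cells. Other scarce factors of the list went either way, and those given next are named after their values were seen. *Foxf2* was at 2.58 CPM against 1.30 CPM. *Foxd1* was at 2.03 CPM against 7.48 CPM, *Pax1*, a relative of *Pax9* in the sclerotome, at 0.369 against 3.48, *Gsc* at 0.185 against 1.44 and *Lhx8* at 0.185 against 1.19.

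Factors of broad mesenchymal use mostly differed less. *Prrx2*, found in 96.1% of the *Tfap2b*/*Dlx5*/*Pax9* cells, was at 320 CPM against 142 CPM (ratio 2.25, 2.13 to 2.38), with a median per cell of 302 CPM (0 to 1055 CPM) against 114 CPM (0 to 777 CPM). *Osr1*, a zinc finger factor of intermediate and lateral mesoderm found in 89.9% of them, was at 286 CPM against 115 CPM (ratio 2.48, 2.34 to 2.64), with a median per cell of 202 CPM (0 to 1592 CPM) against 66.8 CPM (0 to 863 CPM). The middle of both distributions moved, and their ranges overlapped. *Prrx1* was at 317 against 270 CPM, *Twist1* at 76.0 against 48.9, *Foxc1* at 111 against 102, *Foxc2* at 33.8 against 42.0, *Snai1* at 31.7 against 27.1, *Ets1* at 23.99 against 19.99 and *Sox9*, the master factor of cartilage, at 146 against 85.6 (ratio 1.70, 1.57 to 1.85). *Hand2*, a factor of the ventral arches and the heart, went the other way, at 4.43 CPM against 28.9 CPM (ratio 0.153, 0.0975 to 0.230). *Twist2* was at 19.9 against 47.8 CPM and *Snai2* at 34.7 against 57.3. *Osr2* (3.88 against 2.67 CPM) and *Tbx3* (2.58 against 1.11 CPM) were also below the filter. *Tfap2c*, *Dlx3*, *Dlx4*, *Alx1*, *Alx4*, *Lhx6*, *Pitx1*, *Pax3*, *Pax7*, *Hand1* and *Sox10* had no UMI in 5419459 UMIs of these cells, which allows up to 3 counts each.

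Homeodomain factors such as DLX and MSX proteins bind sites with the core TAATTA, and AP-2 factors bind GCCNNNGGC. Both motifs read the same on either strand, so that each is found on both strands at once, and they cannot overlap each other. They were searched in the RefSeq promoters (GRCm38.p6), which run from 250 bases before to 50 bases after a start. Of the 127 genes called higher, 89 had an entry, with 113 promoters. TAATTA was in 5.31% of these promoters, in 2.99% of 201 promoters of genes called lower, in 2.35% of the promoters of all tested genes and in 5.29% of all 32851 promoters. GCCNNNGGC was in 24.8%, 25.9%, 25.8% and 16.6% of them. For the genes called higher, the share with TAATTA was above that of the tested genes and near that of all promoters. It rests on 6 promoters of 5 genes, and 2 of these promoters are of *Dlx6os1*. The share with GCCNNNGGC was near that of the tested genes and above that of all promoters. These differences were not tested.

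The windows with TAATTA in promoters of *Dlx6os1*, *Tfap2a* and *Msx2* are shown because *Dlx6os1* is the antisense RNA beside *Dlx5* and the other genes encode an AP-2 and a homeodomain factor. They are on the minus strand and read 5′ to 3′, and capitals mark the motif, which starts 130, 74, 174, 32 and 187 bases before the start of its promoter. The windows are at chr6:6869646-6869675, chr6:6869590-6869619, chr6:6861840-6861869, chr13:40734935-40734964 and chr13:53472950-53472979.
*Dlx6os1*, 130 bases before: gaaaattacaggTAATTAtctttgacggta
*Dlx6os1*, 74 bases before: gaaaaattactcTAATTAtggctgcattta
*Dlx6os1*, 174 bases before: taaattatcctcTAATTAtacaccagtgtc
*Tfap2a*: cgcgtccttcttTAATTAaaaaggagaatc
*Msx2*: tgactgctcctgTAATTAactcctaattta
*Tfap2a* was below the filter on level and is not among the genes called higher. Matches of GCCNNNGGC in promoters of *Hhip* and *Prrx2* are not shown. A match of letters is not a binding site, and no binding was measured.

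Secreted antagonists of BMP and Wnt signals were among the genes that differed. *Grem1*, which encodes the BMP antagonist gremlin 1, was at 623 CPM against 135 CPM (ratio 4.62, 4.41 to 4.84), with a median per cell of 329 CPM (0 to 6654 CPM) against 0 CPM (0 to 6022 CPM). Of 14 BMP pathway genes that passed the filter, 1 was higher and 1 lower (all genes 1.34% and 2.4%), and the median log2 ratio was -0.02. The BMP target genes *Id1*, *Id2* and *Id3* were at 440 against 518, 176 against 207 and 1253 against 995 CPM.

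The secreted Wnt antagonists *Sfrp2* and *Frzb* were higher. *Sfrp2* was at 1342 CPM against 589 CPM (ratio 2.28), with a median per cell of 817 CPM (0 to 8994 CPM) against 121 CPM (0 to 10434 CPM). *Frzb* was at 244 CPM against 76.3 CPM (ratio 3.19), with a median per cell of 216 CPM (0 to 1403 CPM) against 0 CPM (0 to 914 CPM). The antagonists *Sfrp1* (20.5 against 80.7 CPM), *Sfrp4* (4.61 against 24.5 CPM) and *Dkk3* (34.0 against 78.0 CPM) were lower, as was the agonist *Rspo2*. Of 12 Wnt pathway genes that passed the filter, 2 were higher and 4 lower, beside 1.34% and 2.4% of all genes, with a median log2 ratio of -0.18.

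Among 16 tested genes of endothelin, retinoic acid and FGF signalling, 2 were higher and 3 lower (all genes 1.34% and 2.4%), with a median log2 ratio of -0.15. Both genes called higher act on retinoic acid. *Aldh1a2*, an enzyme of its synthesis, was at 72.9 CPM against 33.9 CPM (ratio 2.15), and *Cyp26b1*, an enzyme of its breakdown, was at 263 CPM against 95.6 CPM (ratio 2.75). The retinol carrier *Rbp4* was at 3.69 against 22.0 CPM. *Fgf18* was at 7.57 against 26.4 CPM, the FGF feedback inhibitor *Spry1* at 21.04 against 57.0 and *Fgfr1* at 118 against 96.6. *Edn1*, encoding endothelin 1, was at 138 against 87.2 CPM.

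Contractile genes mark differentiated VSMCs, and the study calls cells rich in them cSMCs. Most of them were present in the *Tfap2b*/*Dlx5*/*Pax9* cells at somewhat lower levels. *Acta2*, encoding α-smooth muscle actin, was found in 99.6% of the cells at 3233 CPM against 4260 CPM (ratio 0.759), and *Tagln*, encoding SM22α, was at 1728 against 2569 CPM. *Myh11*, smooth muscle myosin, was at 53.3 against 104 CPM (ratio 0.512). *Tpm1* was at 2016 against 1301 CPM and *Tpm2* at 775 against 911. Of 17 tested genes none was at least 2-fold higher and 4 were at least 2-fold lower, against 1.34% and 2.4% of all genes, namely *Des* (2.40 against 13.6 CPM), *Mustn1* (33.2 against 106 CPM), *Actg2* (61.1 against 124 CPM) and *Ldb3* (4.61 against 10.3 CPM). The median log2 ratio was -0.38 and the summed level 8730 against 10416 CPM.

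Of 15 tested genes of modulated VSMCs (mSMCs in the study) none was at least 2-fold higher and 5 were at least 2-fold lower (all genes 1.34% and 2.4%), with a median log2 ratio of -0.27. Besides *Dcn*, these were *Lum*, a small proteoglycan (19.2 against 112 CPM), *Ly6a*, encoding SCA1 (86.7 against 282 CPM), *Col3a1* (210 against 514 CPM) and *Gas6* (457 against 933 CPM). *S100a4* was at 2904 against 3454 CPM, *Fn1* at 1422 against 1940, *Timp1* at 999 against 1173 and *Thbs1* at 1217 against 782.

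In the cGMP pathway, which relaxes VSMCs, 2 subunit genes of the nitric oxide receptor NO-GC were at least 2-fold lower, *Gucy1a1* at 9.78 CPM against 48.0 CPM (ratio 0.204, 0.152 to 0.268) and *Gucy1b1* at 8.12 against 32.0 (ratio 0.254). The phosphodiesterase gene *Pde3a* was at 22.1 against 68.9 CPM (ratio 0.322). *Npr2*, which encodes the CNP receptor GC-B, was at 59.2 CPM against 50.8 CPM (ratio 1.17, 1.03 to 1.32). *Npr1*, encoding the ANP receptor GC-A, was scarce, at 1.48 against 1.63 CPM, and the clearance receptor gene *Npr3* was at 159 against 178. *Prkg1*, encoding cGMP-dependent protein kinase I, was at 11.1 against 21.9 CPM (ratio 0.505), and *Pde5a* at 117 against 85.6 (ratio 1.37). *Prkg2* was at 6.64 against 3.15 CPM, more than 2-fold higher, but it was below the filter on level and thus not called. *Pde1a* was at 17.0 against 18.5 CPM, *Gucy1a2*, a further subunit gene of NO-GC, at 5.91 against 8.07 and *Pde10a* at 1.85 against 2.52. *Pde2a* and *Pde9a* had no UMI. Of 9 tested genes, 3 were lower and none higher, beside 2.4% and 1.34% of all genes, with a median log2 ratio of -0.45.

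Most genes of the ductus arteriosus lay within 2-fold. Of 11 tested, 2 were lower (all genes 2.4%), *Abcc9*, a potassium channel subunit (16.6 against 48.7 CPM), and *Notch3* (2.77 against 8.11 CPM), and the median log2 ratio was 0.0036. *Ptgis*, the prostacyclin synthase, was at 266 against 226 CPM, *Ptgs1* at 86.7 against 51.4 and *Angpt2* at 59.4 against 98.6. Of 9 tested transcription factors of the heart and great vessels, 3 were lower, beside 2.4% of all genes. These were *Tbx18* (13.3 against 28.4 CPM), *Mef2c* (54.6 against 120 CPM) and *Hey2* (12.6 against 29.8 CPM), with a median log2 ratio of -0.42. *Foxp1* was at 198 against 162 CPM, *Klf4* at 162 against 184 and *Gata6* at 121 against 130. *Gata4*, *Gata5*, *Nkx2-5*, *Tbx5* and *Wt1* had no UMI.

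Few genes of skeletal lineages were called, beside 1.34% higher and 2.4% lower of all genes. Of 5 tested cartilage genes, *Col2a1* was higher and 1 was lower, *Sox5* (2.77 against 12.3 CPM), and *Col11a1* was at 80.1 against 83.6 CPM. The median log2 ratio of the cartilage genes was -0.06. Of 10 tested bone genes, 1 was lower, *Smpd3* (2.95 against 7.37 CPM). *Mgp*, an inhibitor of calcification, was at 2301 against 3924 CPM, *Col1a1* at 636 against 783, *Col1a2* at 1508 against 1547 and *Spp1* at 86.9 against 70.2, with a median log2 ratio of 0.07. Of 3 tested tendon genes none was beyond 2-fold, with *Egr1* at 373 against 383 CPM, *Tnc* at 22.1 against 37.7 and *Fmod* at 7.75 against 7.11. *Tnmd*, below the filter, had no UMI in the *Tfap2b*/*Dlx5*/*Pax9* cells and was at 5.22 CPM in the comparison cells.

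Some genes outside the lists, named after their values had been seen, were also beyond 2-fold. Where ranges per cell are given, they overlapped. *Eln*, encoding elastin, was at 2164 CPM and 3.30 times the comparison level (3.22 to 3.37). Its median per cell was 1389 CPM (0 to 14235 CPM) against 135 CPM (0 to 10637 CPM). *Gxylt2*, a xylosyltransferase that acts on Notch, was at 361 CPM (ratio 5.30). Its median per cell was 326 CPM (0 to 2095 CPM) against 35.7 CPM (0 to 1064 CPM). *Fabp5*, a fatty acid binding protein, was at 1422 CPM (ratio 2.46), *Cavin2*, of caveolae, at 553 CPM (ratio 2.35), and the guidance ligand *Sema3c* at 88.4 CPM (ratio 4.96). The cell cycle inhibitors *Cdkn2a* and *Cdkn2b* were at 54.1 CPM (ratio 2.04) and 77.3 CPM (ratio 2.17), and *Ccnd1*, encoding cyclin D1, at 187 CPM (ratio 2.06). Among matrix genes in the other direction, *Fbln2*, encoding fibulin 2, was at 175 CPM (ratio 0.211). Its median per cell was 83.3 CPM (0 to 2130 CPM) against 657 CPM (0 to 3525 CPM). *Thbs2* was at 35.4 CPM (ratio 0.218), *Svep1* at 22.9 CPM (ratio 0.196), *Postn*, encoding periostin, at 8.86 CPM (ratio 0.162) and *Adamts5*, an aggrecanase, at 105 CPM (ratio 0.358). The fibroblast factor *Ebf1* was at 18.5 CPM (ratio 0.241).

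Cycling genes lay within 2-fold. None of 19 tested S phase genes and none of 20 tested G2/M phase genes was beyond 2-fold. Of all genes 1.34% were higher and 2.4% lower, so that in lists of this size a count of none is near the share of all genes. The summed level of the S phase genes was 739 against 813 CPM, with *Rrm1* at 100 against 114 and *Tyms* at 61.3 against 71.9. That of the G2/M genes was 2133 against 2147 CPM, with *Ube2c* at 238 against 239 and *Top2a* at 198 against 205. The median log2 ratios were -0.13 and 0.0077.

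Markers of other cell types were at low levels, with exceptions among fibroblast and pericyte genes. The 8 EC markers summed to 53.3 CPM against 32.3 CPM and were found in 19.7% against 15.2% of cells. *Emcn* was called higher, with most of its UMIs in 2 cells as given above, and *Egfl7* was at 17.2 against 13.1 CPM, *Pecam1* at 6.64 against 4.55 and *Cdh5* at 5.35 against 3.44. At least 3 EC markers were found in 4 of the 228 and 11 of the 1140 cells. Without these cells, 125 genes were higher and 228 lower. The 8 macrophage markers summed to 8.49 against 58.8 CPM, mostly *Lyz2* in the comparison cells (44.0 CPM), and *Ptprc*, *Adgre1*, *C1qa* and *C1qb* had no UMI in the 228 cells. Of 8 Schwann cell markers, *S100b* was at 14.2 against 25.6 CPM, and *Sox10*, *Foxd3* and *Erbb3* had no UMI.

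Of 8 tested adventitial fibroblast markers (all genes 1.34% higher and 2.4% lower), 2 were higher, *Cd34* (42.6 against 19.6 CPM) and *Sfrp2*, and 3 were lower, *Dpt* (4.80 against 24.7 CPM), *Smoc2* (8.12 against 47.5 CPM) and *Dpep1* (1.48 against 9.48 CPM). *Serpinf1* was at 78.6 against 141 CPM, and *Pi16*, found in fibroblasts of many tissues, at 2.21 against 2.00. The list summed to 1511 against 864 CPM, mostly *Sfrp2*, and its median log2 ratio was -0.56. Of 5 tested pericyte markers, *Abcc9* and *Ndufa4l2* (4.43 against 13.8 CPM) were lower, while *Rgs5* was at 117 against 69.5 CPM and *Cspg4* at 70.9 against 49.5, and the list summed to 218 against 191 CPM. None of the epithelial, melanocyte and neuron markers passed the filter, and *Epcam*, *Cdh1*, *Krt5*, *Krt14*, *Krt8*, *Foxn1*, *Gcm2* and *Nkx2-1* had no UMI. The epithelial markers summed to 1.48 against 0.296 CPM with *Tg* at 0.923 CPM, the melanocyte markers to 0.923 against 2.11 CPM with *Mlana* at 0.554 CPM, and the neuron markers to 0.369 against 0.0741 CPM. Of the mesothelial, adipocyte and striated muscle markers, *Krt19* (5.72 against 7.11 CPM), *Pparg* (7.57 against 4.78 CPM) and *Tnnt2* (3.14 against 7.85 CPM) passed the filter, and *Tnnt2* was called lower. The sex-linked *Xist* was at 474 against 457 CPM and *Ddx3y* at 0 in both.

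Levels in cells with 0, 1, 2 and 3 of the genes describe the steps of the rule and are no support for it, since the same genes chose the cells and the genes named here had been seen to differ. *Adamtsl1* was at 3.17 CPM in all cells with none of the genes, 19.6 CPM with 1 gene, 59.5 CPM with 2 genes and 84.3 CPM with all 3. In the same order *Dlx6* was at 0.414, 7.59, 21.5 and 40.5 CPM, and *Foxq1* at 1.60, 11.1, 31.6 and 45.7 CPM. *Osr1* was at 104, 160, 257 and 358 CPM, and *Sfrp2* at 593, 800, 1170 and 1771 CPM. *Dcn* went down from 517 to 372, 78.7 and 38.6 CPM, *Gucy1a1* from 45.6 to 24.02, 10.6 and 7.72 CPM, and *Hox* groups 6 to 13 from 99.1 to 64.8, 10.6 and 5.15 CPM. *Hox* groups 1 to 4 were at 105, 116, 110 and 78.5 CPM. Other genes did not go up from 2 to 3 genes, with *Foxf1* at 15.01 and 12.2 CPM, *Klhdc8a* at 20.2 and 16.1, *Dlx6os1* at 31.8 and 30.2, *Thbs1* at 1316 and 969, *Angptl7* at 26.1 and 0 and *Col2a1* at 202 and 0. The median depth rose at each step, from 16124 to 17524, 20558 and 25239 UMIs, and its part in these levels was not tested. In these sparse counts a cell with 1 gene found may hold others below detection, so that the groups are steps of detection and not cell classes. Just outside and just inside the threshold of 2 genes, *Dcn* thus stood at 372 and 78.7 CPM.

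**Figure D4:**
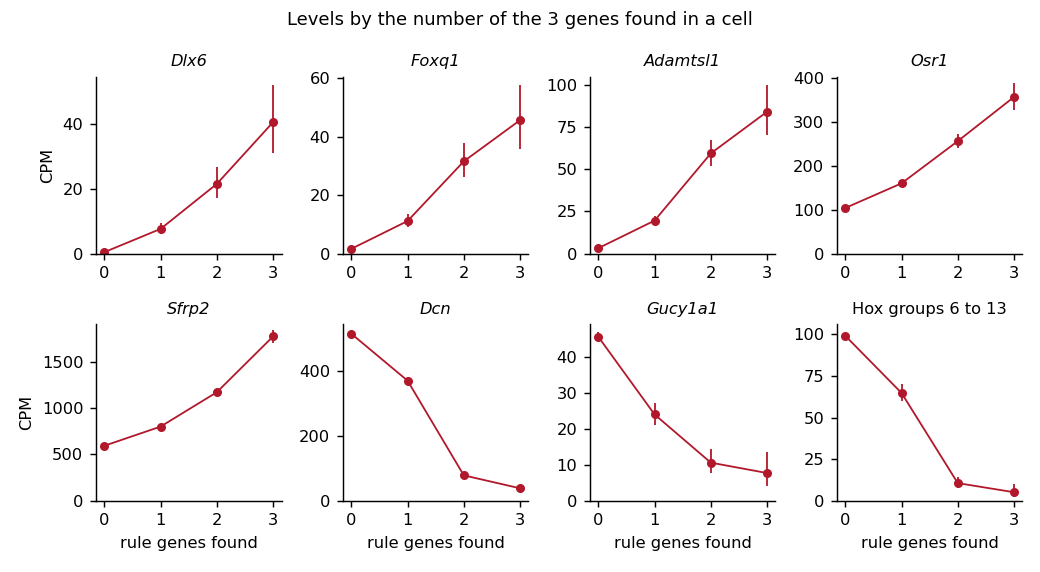
CPM of summed counts (y axis, from 0) of 7 genes seen to differ and of *Hox* groups 6 to 13 in cells of replicate 2 with 0, 1, 2 or 3 of the genes *Tfap2b*, *Dlx5* and *Pax9* found (x axis), with 95% intervals of counting error. *Dlx6*, *Foxq1*, *Adamtsl1*, *Osr1* and *Sfrp2* go up at each step, and *Dcn*, *Gucy1a1* and *Hox* groups 6 to 13 go down.

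The combinations of the 3 genes differed in several of these measures. In cells with *Tfap2b* and *Dlx5*, *Tfap2b* and *Pax9*, *Dlx5* and *Pax9*, and all 3, *Adamtsl1* was at 59.9, 38.1, 73.0 and 84.3 CPM. *Dlx6* was at 18.6, 16.2, 28.6 and 40.5 CPM, and *Foxq1* at 22.2, 17.3, 52.7 and 45.7 CPM. The intervals of *Foxq1* in cells with *Dlx5* and *Pax9* (41.1 to 66.5 CPM) did not overlap those in the other combinations of 2 genes. They cover counting error only and no variation between cells, and *Foxq1* was found in 34.4% of the cells with *Dlx5* and *Pax9*. Differences between the combinations were not tested. *Hox* groups 6 to 13 were at 13.8, 6.93, 9.03 and 5.15 CPM, all far below the 96.6 CPM of the comparison cells. *Msx2* was at 16.8, 2.31, 6.77 and 19.3 CPM. *Dlx6* was thus also present in cells in which *Dlx5* was not found.

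*Myh11* and cycling genes were used to split the cells. A *Myh11* UMI was found in 42 of the 228 cells (18.4%, 13.6 to 24.1%) and in 30.8% (28.1 to 33.6%) of the matched cells, and these intervals did not overlap. At least 20 UMIs of cycling genes per 10000 were found in 76 cells (33.3%, 27.3 to 39.9%) and 33.8% (31.0 to 36.6%) of the matched cells. This is a cut through a range, and 36 of the cells (15.8%) lay between 10 and 40. Each split was compared with 5 matched cells of the same split.

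Among cells with a *Myh11* UMI, 229 genes were at least 2-fold higher (2.44% of the tested genes) and 306 lower (3.26%), and among cells without one, 155 (1.64%) and 277 (2.93%). Among cycling cells, 132 genes were higher (1.39%) and 279 lower (2.94%), and among cells that were not cycling, 158 (1.71%) and 259 (2.8%). Of the genes called higher in all cells and tested in the split, 66 of 108 were also called with a *Myh11* UMI, 103 of 121 without one, 81 of 113 in cycling and 115 of 124 in other cells. For the lower genes these counts were 96 of 186, 200 of 207, 169 of 214 and 202 of 221. The splits share cells with the comparison of all cells, and the smallest one has 42 cells.

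All 30 genes with the highest and lowest ratios kept their direction without a *Myh11* UMI, in cycling and in other cells, and 26 of the 30 kept it with a *Myh11* UMI. The exceptions there were *Col2a1* and *Slpi*, with no UMI in the *Tfap2b*/*Dlx5*/*Pax9* cells, *Slurp1*, with none in either sum, and *Lyz2*, at 1.84 against 1.66 CPM. These cells are part of those that chose the genes. *Dlx6* was at 23.0 against 0.2 CPM with a *Myh11* UMI, 27.9 against 0.3 without one, 24.7 against 0.4 in cycling and 28.1 against 0.2 in other cells. *Adamtsl1* was at 40.4 against 2.4, 73.2 against 2.5, 37.6 against 2.2 and 81.8 against 3.3 CPM in the same order. *Hox* groups 6 to 13 were at 11.0 against 64.5, 8.5 against 111, 17.2 against 87.0 and 4.8 against 96.4 CPM. *Sfrp2* was at 1676 against 1101, 1259 against 342, 1078 against 697 and 1481 against 483 CPM. *Acta2* differed in direction, at 8247 against 9191 CPM with a *Myh11* UMI and at 1974 against 1797 CPM without one. The summed contractile genes, which include *Myh11* itself, did so too, at 19348 against 21053 CPM and 6063 against 4868 CPM. Whether the smaller share of cells with *Myh11* has a part in the lower sum over all cells was not tested.

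**Figure D5:**
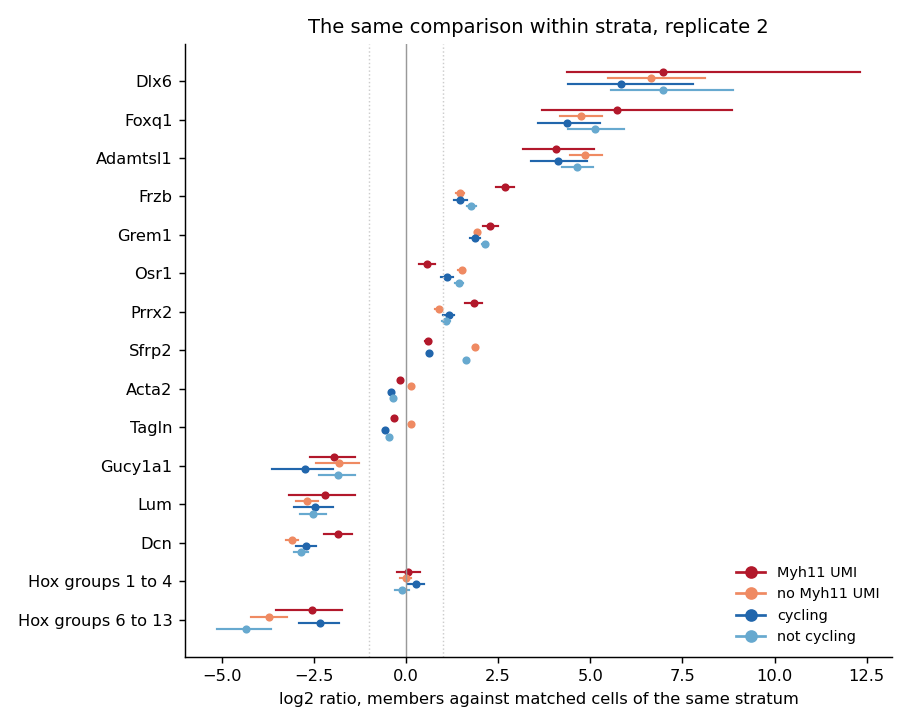
Log2 ratio (x axis) of the *Tfap2b*/*Dlx5*/*Pax9* cells (members) to their matched cells of replicate 2, split by a *Myh11* UMI and by cycling genes, for 13 genes and 2 *Hox* sums, with 95% intervals of counting error. Dotted lines mark a 2-fold difference. *Dlx6*, *Foxq1* and *Adamtsl1* are higher and *Hox* groups 6 to 13 lower in all 4 splits, and *Acta2* is below 0 with a *Myh11* UMI and above 0 without one.

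The cells also lay near each other in 30 principal components of the 2000 most variable genes. With the 3 genes left out, a mean of 36.6% of the 20 nearest cells of a *Tfap2b*/*Dlx5*/*Pax9* cell in replicate 2 were such cells too (median 35%, quartiles 20% and 55%), whereas they made up 3.34% of the library. For a comparison cell the mean was 0.991%, and for a cell with 1 of the genes it was 14.4%. Without cycling genes among the variable genes the mean of the *Tfap2b*/*Dlx5*/*Pax9* cells was 37.0%. A few stood alone, since 4.39% had no such cell among their neighbours.

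The 4 cells of replicate 1 differed from those of replicate 2 in abundant genes and could not be compared in scarce ones. *Eln* had 2 UMIs in them (18.5 CPM), against 304 CPM in the cells of replicate 1 with none of the 3 genes and 2164 CPM in the *Tfap2b*/*Dlx5*/*Pax9* cells of replicate 2. They had no *Dlx6* UMI and no *Myh11* UMI, but for *Dlx6* this allows up to 34.2 CPM, above the 26.9 CPM of replicate 2. All 4 had UMIs of *Hox* groups 6 to 13 (24, 7, 17 and 7 UMIs), which summed to 510 CPM against 230 CPM in the cells of replicate 1 with none of the 3 genes. Their depths were 39503, 31178, 24822 and 12405 UMIs. All 4 passed the rule with *Dlx5* and *Pax9*, with 1 UMI of each gene in 3 of the cells and 2 and 1 in the deepest. The comparison above therefore rests on replicate 2 alone and has no replicate check.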

How the data were processed

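The authors aligned the reads of both 10x Genomics 3′ v3 libraries with Cell Ranger (3.0.2 in the submitters' notes, 3.0.2 and 3.1.0 in the headers of replicates 1 and 2) to mm10, and deposited the UMI counts of 31053 genes in every barcode, unnormalized. Of these genes, 30934 were matched to GENCODE M21 for coordinates. Barcodes were kept with the study's limits, at least 300 genes and 3000 UMIs and under 20% mitochondrial UMIs. Doublets were kept, and no doublet caller was run.

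The rule genes, the cells and all lists were chosen with earlier results of these data known. Each member was matched to 5 cells with 0 UMIs of the 3 genes by total UMIs within its library, counts were summed, and CPM were compared as ratios with exact conditional binomial intervals (95%). Genes needed a mean of at least 5 CPM, and a call means a 2-fold difference. Replicate 1 held 4 members, so that the planned edgeR and DESeq2 tests across libraries were not run, and both tools gave scaling factors only. Free RNA was taken from barcodes with 1 to 100 UMIs. Neighbours were found in 30 principal components of 2000 variable genes. Only the filter, the ratios, the calls and the intervals were tried on simulated sums, which held counting error and no variation between cells. The rule, the matching, the splits, the free RNA share and the neighbours were not tried in this way.

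Named are the 15 genes with the highest and the 15 with the lowest ratio among those with at least 100 UMIs in both sums together, craniofacial factors with a UMI in at least 5% of members, all cGMP genes, and in each other list the genes beyond 2-fold and those with the highest levels. Some genes of the rule and of the lists are not reported here. Genes outside this rule are said to be named after their values were seen. Python 3.11.15, numpy 2.4.6, scipy 1.17.1, pandas 2.3.3, R 4.3.3, edgeR 4.0.16 and DESeq2 1.42.0 were used. The alternatives were other filters, scalings, matchings and definitions of the cells.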

Additional observations from a re-analysis of the deposited data

How the results depend on the processing

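The cells come almost wholly from 1 library, depth limits detection of the 3 genes, and the intervals hold no variation between cultures. The share of members over both libraries was 1.99%, and it was 0.505% with all 3 genes required, 0.573% with at least 2 UMIs in at least 2 genes, 0.197% after thinning to 3000 UMIs per cell and 0.0822% to 3.34% with 1 library left out. The count of 127 higher and 228 lower genes moved to 312 and 518 with a mean of at least 1 CPM, to 42 and 90 with at least 20 CPM, and to 219 and 365 for members without a *Tfap2b* UMI. With all 3 genes required 364 genes were lower. With no filter and 1 UMI added the counts were 16397 and 826, since the added UMI alone gives a ratio of 4.98 to a gene at 0 in both sums. With 1 library left out they ranged from 127 to 1929 and from 228 to 1346, the larger from the 4 cells of replicate 1. Of 192 tested list genes, 14 were higher and 35 lower, beside 1.34% and 2.4% of all genes. With at least 20 CPM these counts were 9 and 20 of 143, and with no filter 108 and 62 of 365. With at least 1 CPM, 31 of 253 were higher. The list counts ranged from 14 to 45 and from 35 to 47 with 1 library left out. TMM factors, size factors, other matchings and added exclusions of deep cells, EC marker cells or the cell richest in *Col2a1* kept the counts within 1.5 times. The log2 ratio of *Slurp1* was -0.68 with all 3 genes required, and that of *Col2a1* -0.49 for members without *Tfap2b*. Without replicate 2, that is in the 4 cells of replicate 1, signs of the log2 ratios turned, from the value without replicate 1 to the value without replicate 2, for macrophage markers (-2.79 to 1.32), *Hox* groups 6 to 13 (-3.42 to 1.02), *Lyz2* (-5.09 to 2.32), *Hp* (-3.46 to 1.88), *Hoxc6* (-3.41 to 0.86), *Hoxa7* (-3.36 to 1.32), *Scn7a* (-3.32 to 1.32), *Ms4a4d* (-3.18 to 1.42), *Lgi2* (-3.12 to 2.47), *Gucy1a1* (-2.30 to 1.52), *Col3a1* (-1.29 to 1.26), *Frzb* (1.67 to -1.85), *Sfrp2* (1.19 to -1.02), *Prrx2* (1.17 to -0.51), *Osr1* (1.31 to -0.68) and *Cyp26b1* (1.46 to -4.80). The cause was not tested. A paired test over both libraries was not run, since it was planned only for at least 50 members in each and replicate 1 holds 4.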

Other observations

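Cells with UMIs of a single gene of *Tfap2b*, *Dlx5* and *Pax9* differed by which gene was found. In replicate 2, *Hox* groups 6 to 13 were at 36.1 CPM in the 140 cells with *Tfap2b* alone, 43.8 CPM in the 223 cells with *Dlx5* alone and 137 CPM in the 123 cells with *Pax9* alone, against 99.1 CPM in cells with none. *Dlx6* was at 6.40, 11.0 and 2.51 CPM in the same order against 0.414 CPM, and *Adamtsl1* at 28.6, 18.6 and 11.3 CPM against 3.17 CPM. In replicate 1, the 94 cells with *Dlx5* alone had *Dlx6* at 2.58 CPM (1.04 to 5.31) against 0.123 CPM (0.0671 to 0.206) in cells with none, with *Hox* groups 6 to 13 at 206 against 230 CPM. The 80 cells with *Pax9* alone had no *Dlx6* UMI, *Hox* groups 6 to 13 at 327 CPM and *Sfrp2* at 601 CPM, against 308 CPM of *Sfrp2* in cells with none. These groups were formed after the data had been seen, and their differences were not tested. In replicate 2, *Pax9* was found in 11.6% of the cells with at least 3 EC markers and in 3.95% of the other cells. The part of EC marker cells in the levels of the *Pax9* group was not tested.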
